A study of Mus musculus with 12 samples.

Results

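The ependymal and motile cilia genes are 40 genes taken from a fixed list of symbols: transcription factors of the multiciliated cell, subunits of the ciliary dynein motors, proteins of the radial spokes and central apparatus, proteins of the microtubule doublets, and other proteins of motile cilia or ependymal cells. All 40 were found among the 21532 genes of the deposited count table, 38 under their own symbol and Dnai1 and Dnai2 under the older symbols Dnaic1 and Dnaic2. A filter on low counts kept 39 of the 40 for testing, and Mcidas was the one it left out.

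RNA was measured by sequencing in the hippocampus of 12 wild-type C57BL/6 mice, each of which gave 1 library. The 4 groups held 3 mice each: stigmasterol with tissue taken at 1 h, vehicle at 1 h, stigmasterol at 6 h and vehicle at 6 h, and mice are called here by the numbers in their titles. Stigmasterol is a plant sterol related to cholesterol. The labels name it as the agent in most fields, but a treatment field carried by all 12 samples, vehicle mice included, gives beta-sitosterol at 100 mg/kg by intraperitoneal injection, so the compound and dose are stated here only as the labels give them. The sex and age of the mice and the composition of the vehicle are not given in the sources used here, and the title numbers do not pair mice across groups. Library totals lay between 27613253 and 42043875 counts.

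Ependymal cells line the brain ventricles and carry tufts of motile cilia that move cerebrospinal fluid. The core of such a cilium, the axoneme, is a ring of microtubule doublets around a central pair; dynein arms on the doublets slide them past each other, and radial spokes and central-pair projections coordinate the beat. The program is switched on by Mcidas and its relatives through Foxj1 and RFX factors, which act on the promoters of axonemal genes. The hippocampus borders the lateral ventricle, so ependyma can be part of the dissected tissue, and so can the choroid plexus, an epithelium in the ventricle that makes cerebrospinal fluid and also bears cilia. Hippocampal neurons carry a solitary non-motile primary cilium, which lacks the dynein arms, spokes and central pair.

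RFX factors bind a DNA element called the X-box, and the promoters of the cilia genes were searched for it, since these genes are a known target class of RFX factors. The window was RefSeq's, in build GRCm38.p6, from 250 bases before to 50 bases after each gene's start, and 36 of the 40 genes had an entry. The full X-box, spelled GTNNCC, then any 3 letters, then GNAAC, and searched on both strands, was present for 8 of the 36 genes (22.2%): Spag16, Pifo, Ccdc114, Hydin, Ccno, Spag6l, Cfap44 and Tekt4. It was present for 673 of 27025 genes with a promoter (2.49%), for 16 of 72 other motile cilia genes (22.2%) and for 0 of 12 choroid plexus marker genes. The shorter half-site GTTGCC, which can overlap the full element, was present for 18 of the 36 genes (50%) and for 14.1% of all genes. The forkhead element GTAAACA, the kind bound by Foxj1, was present for 3 of the 36 genes (8.33%) and for 4.05% of all genes. Some genes have several RefSeq starts; over the 40 promoters of these genes the full X-box was in 8 (20%), against 714 of all 32851 promoters. These are matches of letters and not evidence of binding. The promoters shown are those of the 3 genes with a full X-box that are also among the 12 with the smallest p at 1 h; each reads along the gene's own strand with its full X-boxes in capitals, 2 in Pifo at chr3:106001448-106001747 (minus strand), 2 in Tekt4 at chr17:25471340-25471639 (plus strand) and 1 in Spag16 at chr1:69826720-69827019 (plus strand). The Pifo window belongs to a RefSeq start inside the GENCODE gene; the other Pifo promoter, at the 5′ end of the GENCODE gene (chr3:106014597-106014896), has 0 full X-boxes. The Tekt4 window also lies inside the GENCODE gene, which starts at 25454615.
Pifo: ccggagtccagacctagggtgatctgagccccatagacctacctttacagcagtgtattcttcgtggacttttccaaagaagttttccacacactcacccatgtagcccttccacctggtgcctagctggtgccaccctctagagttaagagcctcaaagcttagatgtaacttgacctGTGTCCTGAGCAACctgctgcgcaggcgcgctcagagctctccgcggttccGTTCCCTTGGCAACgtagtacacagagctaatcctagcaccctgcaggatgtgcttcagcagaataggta
Tekt4: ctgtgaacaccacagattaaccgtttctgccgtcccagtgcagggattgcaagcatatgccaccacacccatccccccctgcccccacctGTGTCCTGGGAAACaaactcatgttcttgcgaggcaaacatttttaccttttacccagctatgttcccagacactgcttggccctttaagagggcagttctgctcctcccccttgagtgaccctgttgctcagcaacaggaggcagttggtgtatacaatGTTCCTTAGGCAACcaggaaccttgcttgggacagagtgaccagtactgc
Spag16: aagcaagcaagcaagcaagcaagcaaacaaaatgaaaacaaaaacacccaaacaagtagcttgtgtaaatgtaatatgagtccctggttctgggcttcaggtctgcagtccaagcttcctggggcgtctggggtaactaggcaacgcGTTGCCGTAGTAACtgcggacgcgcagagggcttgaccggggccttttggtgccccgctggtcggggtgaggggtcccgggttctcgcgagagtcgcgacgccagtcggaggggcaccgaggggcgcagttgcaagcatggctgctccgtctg

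Levels of different genes were compared as RPKM, the library-scaled CPM divided by the exon length in kilobases, as the mean over all 12 libraries with the SD. Among the regulators, Rfx3, an X-box binding factor also made outside the ependyma, was highest at 10.1 ± 1.49 RPKM, which was the highest level of the 40 genes. Foxj1, the master factor of motile cilia, was at 6.17 ± 2.32 RPKM, Ccno, a cyclin-like protein needed to multiply basal bodies, at 1.01 ± 0.222 RPKM and Rfx2 at 0.906 ± 0.193 RPKM. Mcidas, which starts the multiciliation program in the differentiating cell, had 0 to 13 counts per library, and the library of stigmasterol mouse 23 at 6 h had 0, which allows up to 3 counts.

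The 8 dynein heavy chains, the motor subunits themselves, were all low, between 0.317 RPKM for Dnah12 and 2.54 ± 0.272 RPKM for Dnah9, and only Dnah1, Dnah2 and Dnah9 exceeded 1 RPKM. Of the other dynein genes, Dynlrb2, a light chain, was above all heavy chains at 3.999 ± 1.401 RPKM, while the rest lay within their range: Dnai1 and Dnai2, intermediate chains of the outer arm, were at 1.95 and 1.02 RPKM, and Ccdc114, which docks the outer arm on the doublet, was at 1.55 RPKM. Rsph9 and Rsph1, of the radial spoke head, were at 8.99 ± 1.1 and 4.56 ± 1.47 RPKM, while the third spoke head protein, Rsph4a, was at 2.06 RPKM. The central apparatus genes Spag6l, Hydin, Spag16 and Spag17 were at 1.81, 0.446, 0.403 and 0.217 RPKM, so that spoke heads stood above the central apparatus.

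The doublet genes Ccdc39 and Ccdc40, whose products together set the spacing of the axonemal repeat, were at 3.30 and 0.890 RPKM. Tekt1 and Tekt4, filaments inside or along the doublet, were at 2.48 and 1.01 RPKM, and the doublet proteins Cfap126 and Cfap52 at 2.06 and 1.54 RPKM. The highest of the remaining genes were Tmem212, a membrane protein used as an ependymal marker, at 4.03 RPKM, Lrrc23, a radial spoke protein, at 3.86 RPKM, and Cfap65 and Ccdc153 at 3.12 and 3.08 RPKM. Cfap44 and Cfap43, whose counterparts in the alga Chlamydomonas tether an inner-arm motor, were at 2.26 and 1.23 RPKM, and Ak7, Ccdc113, Pifo and Mlf1 lay between 1.246 and 1.81 RPKM.

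**Figure D1:**
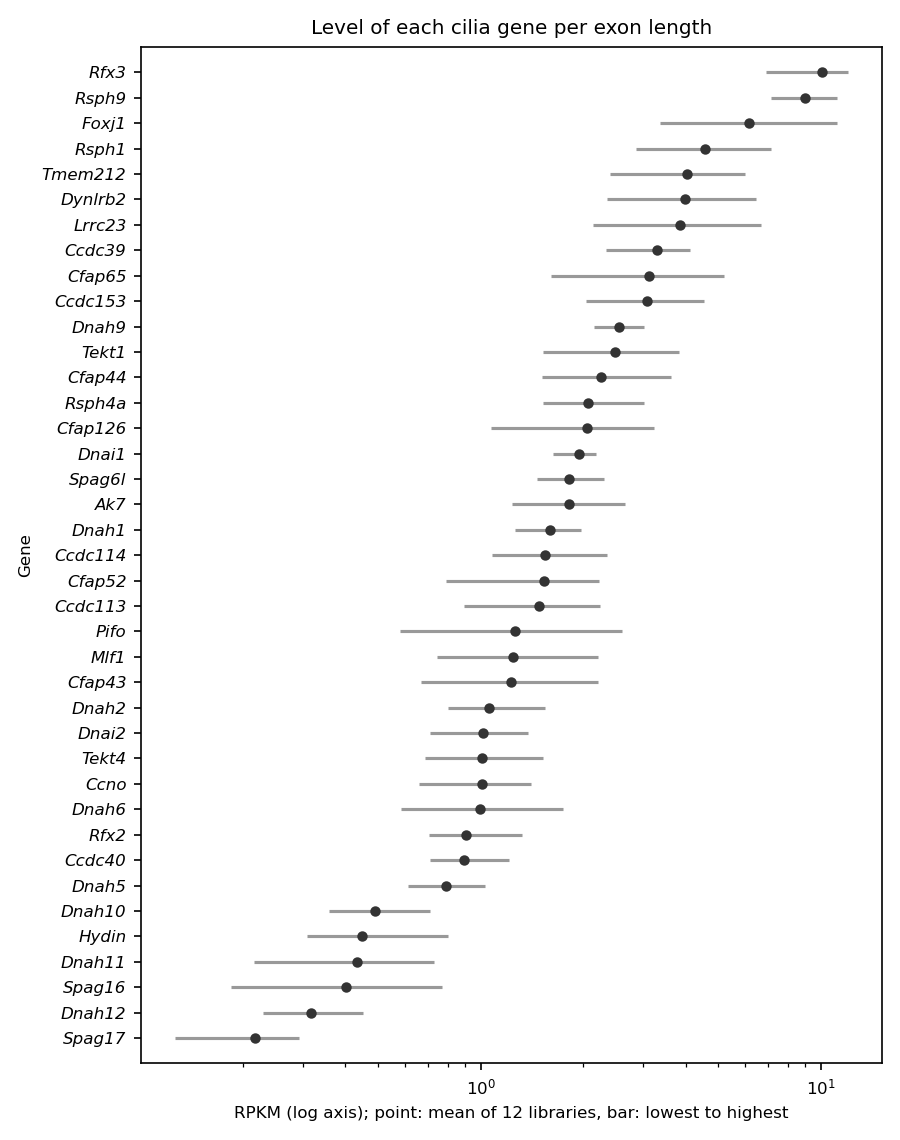
Mean RPKM over the 12 libraries for the 39 tested genes, on a log axis, ordered by level; points are means and bars run from the lowest to the highest library. Rfx3 at 10.1 RPKM and Rsph9 at 8.99 RPKM are the highest and Spag17 at 0.217 RPKM is the lowest.

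Some of these values may include reads of a neighbour, since the labels do not say whether the libraries or the counting used strand; whether reads were shared was not tested. Dnai1 overlaps exons of Enho, which reached 2222 counts in a library. Ccdc39 overlaps exons of Ttc14, which reached 7549 counts. Ccdc39 and Ttc14 were lowest in the same library, stigmasterol mouse 8 at 1 h (17.4 and 106 CPM), and highest in the same library, stigmasterol mouse 23 at 6 h (30.6 and 219 CPM). Spag17 overlaps Wdr3, and Dnah11 overlaps Cdca7l. Cfap43 overlaps exons of Itprip and Gm22240 on its own strand, which strand could not separate, and neither neighbour is in the count table. Spag6l has a close copy, Spag6, at 0.701 to 1.37 CPM, and Dynlrb2 has one, Dynlrb1, at 74.7 to 102 CPM. Reads that match both copies could affect these levels, and how such reads were counted was not tested.

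Many of the genes had their highest or lowest level in the same few libraries. The highest library was 2.21 times the lowest in the median of the 39 genes, against 1.55 times in the median of all tested genes. It was 1.47 times in the 12518 genes with a mean between 1.33 and 114.8 CPM, the lowest and highest medians of the 39. Levels inside that wide range were not matched, so the ratios are not compared at equal level. The ratio ran from 1.33 for Dnai1 to 4.49 for Pifo, and 24 of the 39 genes spanned at least 2-fold. Stigmasterol mouse 22 at 6 h was the highest library for 17 of the 39 genes, and vehicle mouse 21 at 6 h for 14. These libraries were the highest for 13.2% and 8.93% of all genes. Vehicle mouse 4 at 1 h was the lowest library for 14 of the 39 and vehicle mouse 9 at 1 h for 11, while they were the lowest for 8.27% and 6.19% of all genes. The high libraries thus included a stigmasterol and a vehicle mouse, and the low ones were both vehicle mice at 1 h.

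Cilia levels were set beside 16 choroid plexus markers, among them Ttr, the thyroxine carrier of cerebrospinal fluid, and Otx2, the plexus transcription factor. The mean log2 CPM of the 40 cilia genes in stigmasterol mice 1, 8 and 11 at 1 h was 2.56, 2.65 and 2.93, and in vehicle mice 4, 5 and 9 at 1 h it was 2.22, 2.63 and 2.26. In stigmasterol mice 13, 22 and 23 at 6 h it was 2.57, 3.10 and 2.44, and in vehicle mice 12, 14 and 21 at 6 h it was 2.51, 2.60 and 3.10. The 2 lowest values were those of vehicle mice 4 and 9, and vehicle mouse 5 lay within the range of the stigmasterol mice at 1 h.

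The plexus mean on the same scale was 4.44, 4.94 and 5.62 in stigmasterol mice 1, 8 and 11, and 0.81, 5.06 and 1.02 in vehicle mice 4, 5 and 9. At 6 h it was 3.72, 5.43 and 2.74 in stigmasterol mice 13, 22 and 23, and 4.87, 3.47 and 5.51 in vehicle mice 12, 14 and 21. The libraries of vehicle mice 4 and 9 were thus lowest for both lists. The summed plexus level was 2082 to 5165 CPM in stigmasterol mice and 74.5 to 3057 CPM in vehicle mice at 1 h, and 473 to 4736 CPM in stigmasterol mice and 879 to 4328 CPM in vehicle mice at 6 h; no plexus marker was at 0 in any library. Across libraries the plexus mean spanned 4.80 log2 units and the cilia mean 0.88. In tissue of this kind, fewer ependymal or plexus cells and less RNA per cell cannot be told apart.

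**Figure D2:**
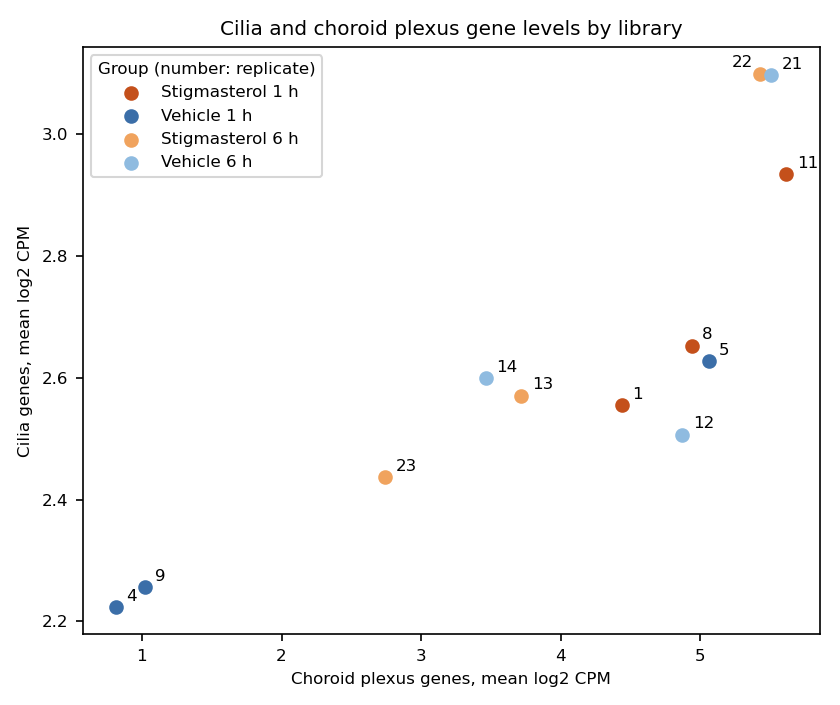
Mean log2 CPM of the 40 cilia genes against mean log2 CPM of the 16 choroid plexus markers, 1 point per library, labelled with the mouse number. Vehicle mice 4 and 9 at 1 h lie at the lower left, and stigmasterol mouse 22 and vehicle mouse 21 at 6 h at the upper right, both at a cilia mean of 3.10.

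Other lists differed in how far they spanned. Meningeal fibroblast and striatal markers spanned more than the cilia genes, 1.34 and 2.10 log2 units in their means. A list of 93 other motile cilia genes, which shares no gene with the 40, spanned 0.73 log2 units in its mean and was lowest in vehicle mouse 4 for 36 of its 92 tested genes. The 25 genes of intraflagellar transport, the cargo system that builds motile and primary cilia, spanned 0.12, and 16 genes of the neuronal primary cilium spanned 0.08. A set of 8 ependymal genes outside the axoneme, among them Vim, Cd24a and S100b, which other cells also make, spanned 0.44. Astrocyte and hippocampal neuron markers spanned 0.40 and 0.45. Striatal markers were highest in stigmasterol mouse 8 at 1 h, at a mean of 4.41 log2 CPM against 2.31 to 2.83 in the other libraries, and that library was the lowest for 4 of the 39 cilia genes, Rfx3, Dnah9, Ccdc39 and Cfap44, and for 13.2% of all genes.

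**Figure D3:**
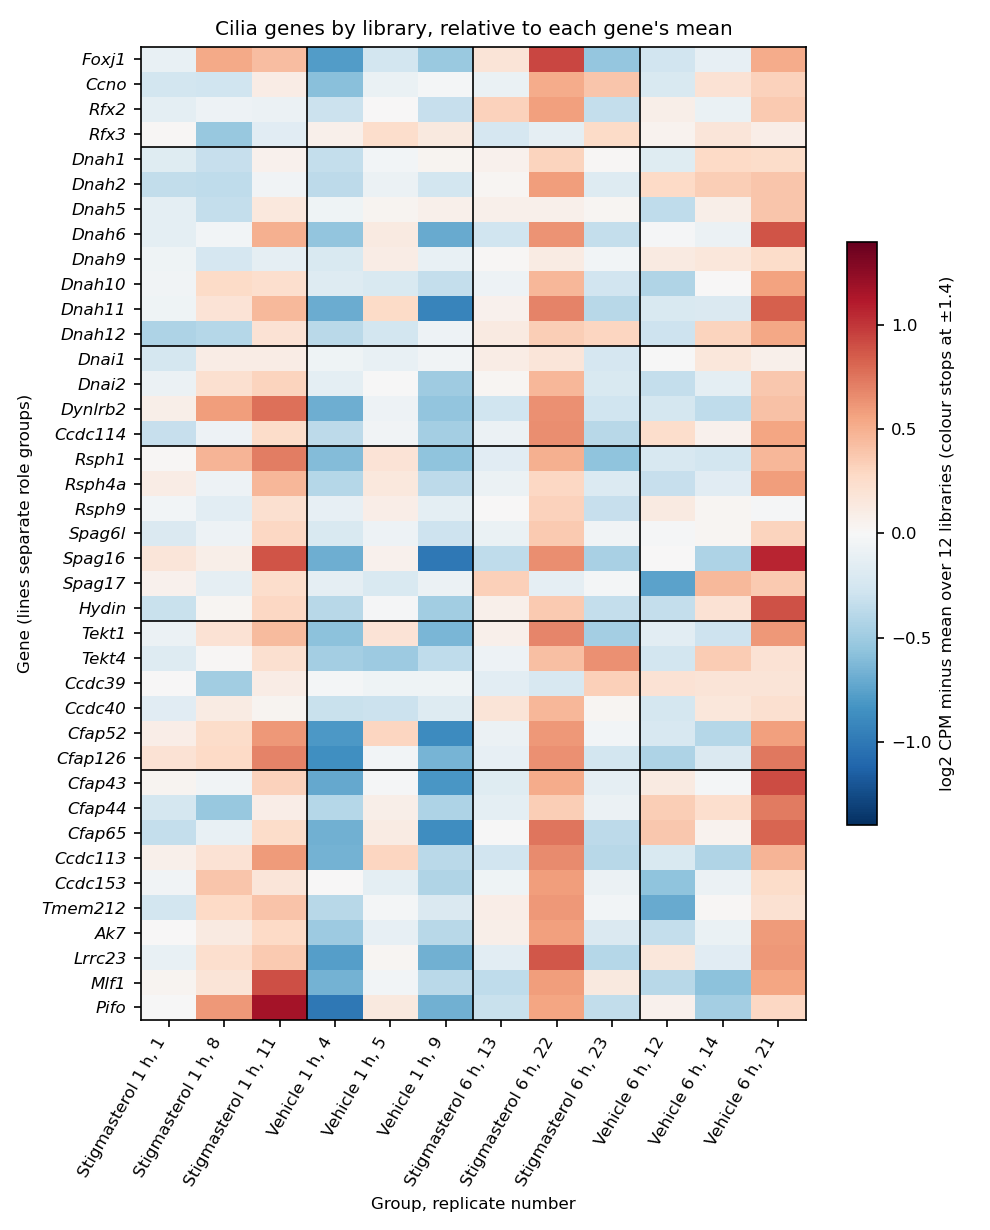
Log2 CPM of each of the 39 tested genes in each of the 12 libraries, as the difference from the gene's mean over libraries; genes are grouped by role and libraries in group order. The columns of vehicle mice 4 and 9 at 1 h are mostly below the mean, and those of stigmasterol mouse 22 and vehicle mouse 21 at 6 h mostly above it.

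The effect of stigmasterol 1 h after injection was the first comparison. None of the 39 genes passed the test (edgeR quasi-likelihood, Benjamini-Hochberg adjusted p below 0.05 over 18382 genes), and the test called 0% of all genes. The smallest adjusted p among the 39 was 0.649. In this fit 33 of the 39 genes had a higher mean in stigmasterol mice, against 49.6% of all genes, and the median log2 fold change was 0.37 against -0.00 for all genes. At an unadjusted p below 0.05, 8 were higher and 1 was lower, where the background was 4.97% and 2.55% of all genes. The count of 8 was 1 without stigmasterol mouse 11, 2 without vehicle mouse 4 or 9, and 17 without vehicle mouse 5. Over all genes, the higher count in these fits was 962 of 18632, 627 of 18726, 598 of 18688 and 831 of 18732, in that order. The DESeq2 Wald test and limma-voom also called 0 of the 39, with 12 and 10 at an unadjusted p below 0.05. At that cutoff DESeq2 had 878 of all 18382 genes higher and 417 lower, and limma-voom 910 and 491.

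Dynlrb2 (chromosome 8, 116504974 to 116515915), the dynein light chain, had the smallest p. It was at 2.23, 3.16 and 3.58 CPM in stigmasterol mice 1, 8 and 11, and at 1.31, 2.01 and 1.43 CPM in vehicle mice 4, 5 and 9, so the groups did not overlap. Its log2 fold change was 0.92 ± 0.30 (SE, n = 3 each), with an edgeR adjusted p of 0.649.

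Pifo (chromosome 3, 105996957 to 106014646), a protein of the ciliary base that acts in disassembly of the primary cilium, was at 1.30, 2.00 and 2.93 CPM in stigmasterol mice 1, 8 and 11, and at 0.654, 1.44 and 0.822 CPM in vehicle mice 4, 5 and 9. Vehicle mouse 5 was above stigmasterol mouse 1. The log2 fold change was 1.102 ± 0.36 with an edgeR adjusted p of 0.649.

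Foxj1 (chromosome 11, 116330704 to 116335399) was at 14.1, 21.9 and 20.6 CPM in stigmasterol mice 1, 8 and 11, and at 8.84, 12.7 and 10.6 CPM in vehicle mice 4, 5 and 9. All stigmasterol mice were above all vehicle mice. The log2 fold change was 0.82 ± 0.32 with an edgeR adjusted p of 0.649.

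Rfx3 (chromosome 19, 27761721 to 28011166) ran the other way, at 111, 75.9 and 98.5 CPM in stigmasterol mice 1, 8 and 11, and 116, 130 and 121 CPM in vehicle mice 4, 5 and 9. Every stigmasterol mouse was below every vehicle mouse, and the lowest, mouse 8, was the library with the highest striatal markers; the part of that tissue in the difference was not tested. The log2 fold change was -0.36 ± 0.14 with an edgeR adjusted p of 0.649. Rfx2 and Ccno had log2 fold changes of 0.11 ± 0.20 and 0.08 ± 0.22, with edgeR adjusted p of 0.900 and 0.931, and their groups overlapped.

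Cfap126, a doublet protein also called Flattop, was at 3.96, 4.17 and 5.56 CPM in stigmasterol mice 1, 8 and 11, and at 1.90, 3.34 and 2.19 CPM in vehicle mice 4, 5 and 9. The groups did not overlap. Mlf1, a protein of motile ciliated cells, was at 2.08, 2.30 and 3.79 CPM in stigmasterol mice and 1.28, 1.97 and 1.55 CPM in vehicle mice, again without overlap. The log2 fold changes of Cfap126 and Mlf1 were 0.89 ± 0.32 and 0.77 ± 0.33, with edgeR adjusted p of 0.649 and 0.657.

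Rsph1, of the radial spoke head, was at 6.04, 8.27 and 9.82 CPM in stigmasterol mice 1, 8 and 11, and at 3.92, 6.79 and 4.02 CPM in vehicle mice 4, 5 and 9. Spag16, of the central apparatus, was at 2.80, 2.63 and 4.60 CPM in stigmasterol mice and 1.56, 2.61 and 1.249 CPM in vehicle mice. Spag16 in vehicle mouse 5 was just under the lowest stigmasterol mouse, and Rsph1 in vehicle mouse 5 was above stigmasterol mouse 1. Their log2 fold changes were 0.72 ± 0.30 and 0.90 ± 0.42, with edgeR adjusted p of 0.655 and 0.664.

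The remaining genes named at 1 h were Tekt4 at 0.47 ± 0.22, Cfap43 at 0.58 ± 0.27, Cfap52 at 0.70 ± 0.33 and Ak7, an adenylate kinase of the axoneme, at 0.47 ± 0.23, as log2 fold changes with edgeR adjusted p between 0.662 and 0.678. Groups of 10 of the 39 genes did not overlap: 9 were higher in stigmasterol mice, against a background of 8.23% of all genes, and 1, Rfx3, was lower, against 7.57%.

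By role, the median log2 fold change at 1 h was 0.49 in the 10 other cilia and ependymal genes, all higher, and 0.49 in the 6 doublet genes, of which 5 were higher. It was 0.31 in the 7 spoke and central apparatus genes and 0.31 in the 4 smaller dynein and docking genes, all higher. In the 8 dynein heavy chains it was 0.02, with 4 higher and 4 lower, the lower ones being Dnah1, Dnah2, Dnah5 and Dnah9. The difference between the role groups was not tested.

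**Figure D4:**
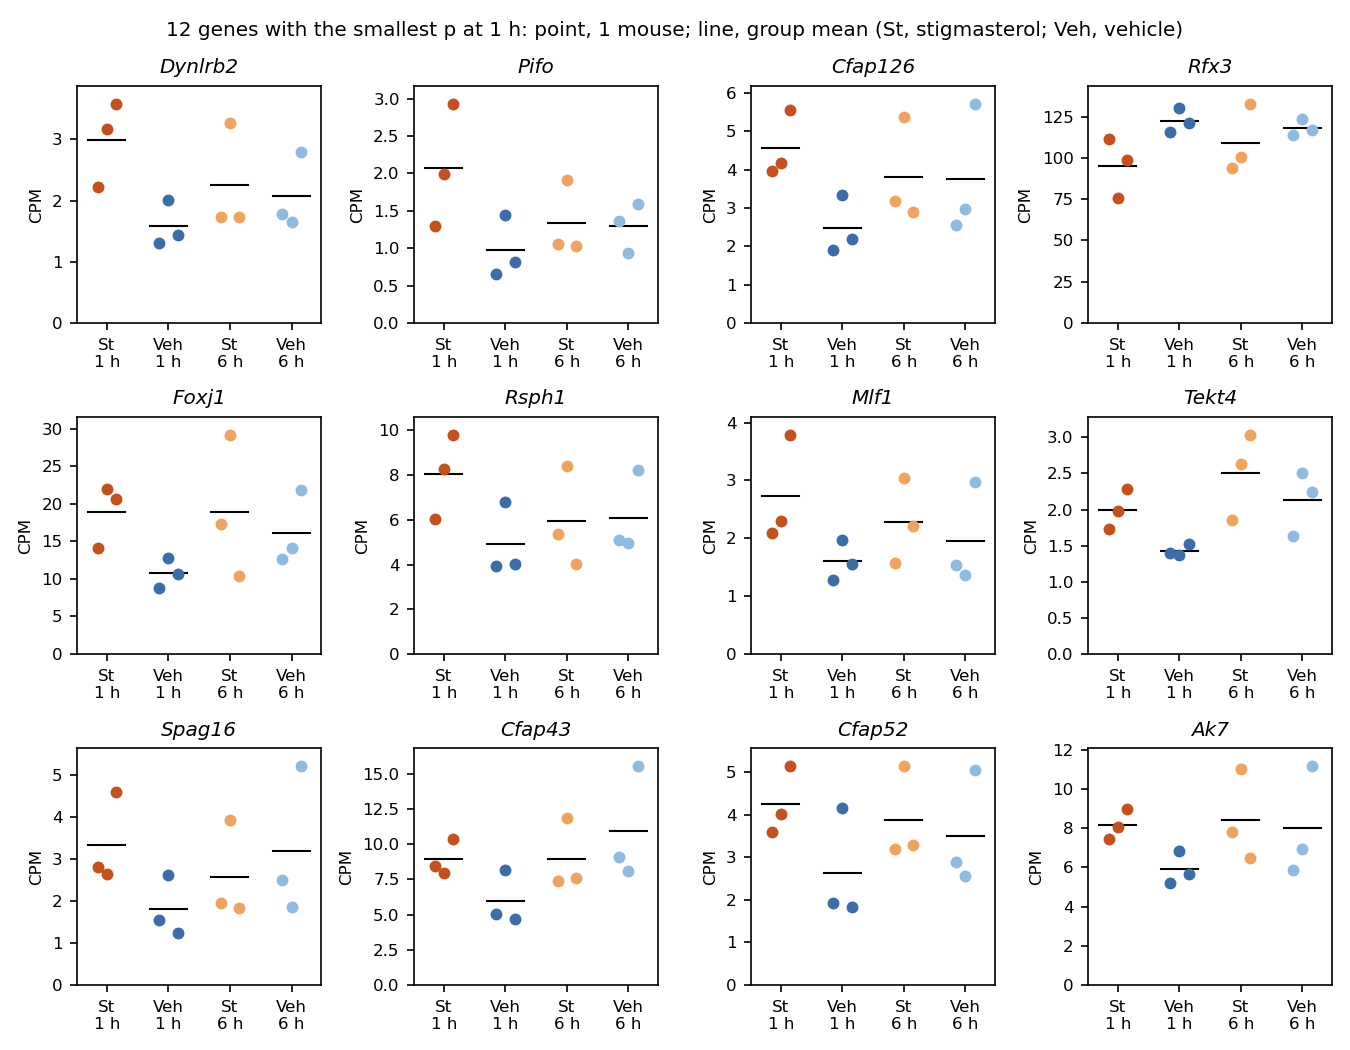
CPM in each library, by group, for the 12 genes that ranked first by p at 1 h; each point is 1 mouse, each line a group mean, and stigmasterol is drawn to the left of vehicle at each time. At 1 h the 3 stigmasterol points of Foxj1 (14.1 to 21.9 CPM) lie above the 3 vehicle points (8.84 to 12.7 CPM), and at 6 h the groups overlap.

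All 16 plexus markers had a higher mean in stigmasterol mice at 1 h (median log2 fold change 1.45), and 0 of the 16 passed the edgeR test. At an unadjusted p below 0.05, 1 was higher (background 4.97% of all genes). The plexus mean at 1 h was 4.44 to 5.62 log2 CPM in stigmasterol mice, and 0.815, 5.06 and 1.02 in vehicle mice 4, 5 and 9. Vehicle mouse 5 thus lay within the stigmasterol range and vehicle mice 4 and 9 below it, so treatment and content were separated only in part. A fit with plexus content as a covariate takes its slope from the spread within all 4 groups. Whether plexus content accounts for the difference at 1 h was not tested. In that fit, the median of the 39 cilia genes at 1 h was -0.04 and 15 of 39 were higher. Without vehicle mice 4 and 9 together it was 0.06 and 27 of 40 were higher; these were the vehicle mice with the lowest cilia levels, so a smaller difference follows from leaving them out, and mouse 5 alone then stands for vehicle at 1 h, its spread taken from the other groups. Under the covariate, Rfx3 was at -0.32 ± 0.17 and Tekt4 at 0.55 ± 0.29, while Foxj1 was at 0.19 ± 0.31 and Dynlrb2 at 0.31 ± 0.27. All 13 meningeal fibroblast markers and all 12 tested striatal markers were also higher in stigmasterol mice at 1 h, with medians of 0.74 and 1.04. In each list 0 passed the edgeR test. At an unadjusted p below 0.05, 6 meningeal and 8 striatal markers were higher (background 4.97% of all genes). The meningeal mean was 3.77, 3.27 and 4.52 log2 CPM in stigmasterol mice 1, 8 and 11, and 3.37, 3.18 and 3.32 in vehicle mice 4, 5 and 9. The striatal mean in the same mice was 2.68, 4.41 and 2.57, and 2.44, 2.54 and 2.55. The part of these tissues in the cilia values was not tested.

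At 6 h, 17 of the 39 genes were higher and 22 lower in stigmasterol mice, against 50% of all genes higher, and the median log2 fold change was -0.02. None passed the edgeR test, which called 0% of all genes, none had an unadjusted p below 0.05 (background 1.64% higher and 2.46% lower), and the smallest adjusted p was 1.00. DESeq2 and limma-voom called 0 of the 39 as well, with 1 and 0 at an unadjusted p below 0.05. The median was -0.20, -0.14 and -0.08 without stigmasterol mouse 22 or vehicle mouse 12 or 14, and 0.23, 0.12 and 0.04 without vehicle mouse 21 or stigmasterol mouse 23 or 13, so it turned with which library was left out. Without stigmasterol mouse 22, 4 genes were lower at an unadjusted p below 0.05, beside 563 of all 18722 genes. With plexus content as a covariate the median at 6 h was 0.06 and 26 of 39 were higher.

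Cfap44 had the smallest p at 6 h, at 16.8, 23.4 and 17.4 CPM in stigmasterol mice 13, 22 and 23, and at 23.5, 21.7 and 30.5 CPM in vehicle mice 12, 14 and 21. The groups overlapped through stigmasterol mouse 22, and the log2 fold change was -0.39 ± 0.19. Dnah9, an outer-arm heavy chain, was at 40.7, 43.6 and 39.3 CPM in stigmasterol mice and 44.0, 45.1 and 48.2 CPM in vehicle mice, the only one of the 39 whose groups did not overlap (background 4.74% lower). Its log2 fold change was -0.15 ± 0.09. Tmem212, Ccdc153, Ccdc39 and Ccdc40 had log2 fold changes of 0.36 ± 0.25, 0.28 ± 0.22, -0.18 ± 0.15 and 0.18 ± 0.15. The edgeR adjusted p was 1.00 for each of these 6 genes.

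Foxj1 at 6 h was at 17.2, 29.2 and 10.4 CPM in stigmasterol mice 13, 22 and 23, and at 12.6, 14.04 and 21.8 CPM in vehicle mice 12, 14 and 21. The stigmasterol group held both the highest and the lowest of these 6 values, and the log2 fold change was 0.23 ± 0.31. Without stigmasterol mouse 22 it was -0.22. Rfx3, Rfx2 and Ccno had log2 fold changes of -0.12, 0.11 and 0.17. The 16 plexus markers were all lower in stigmasterol mice at 6 h, with a median of -0.37.

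**Figure D5:**
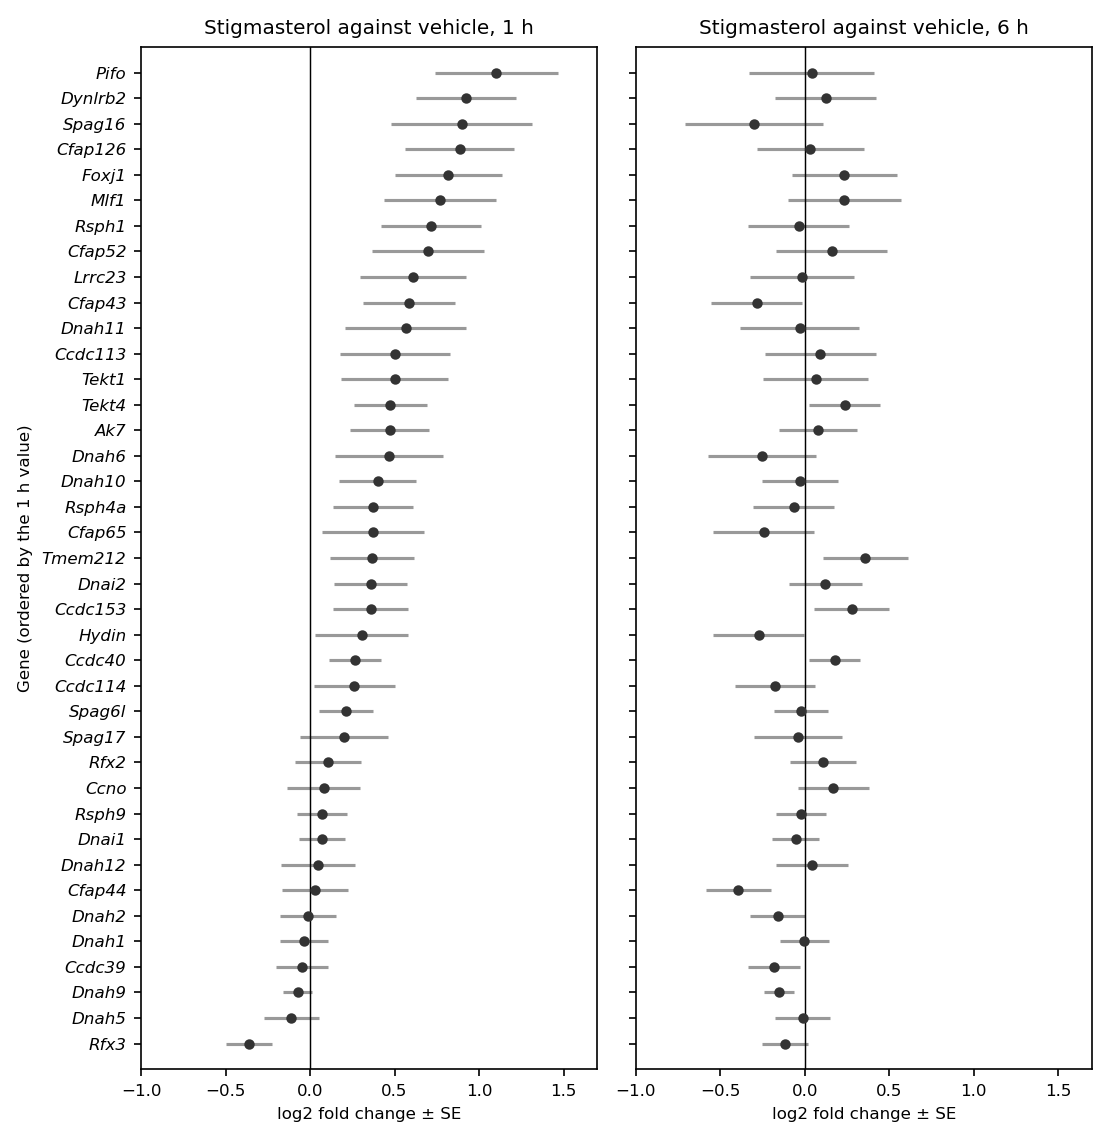
Log2 fold change with its SE for each of the 39 tested genes, stigmasterol against vehicle, at 1 h (left) and at 6 h (right), ordered by the 1 h value. The genes centre on a median of 0.37 at 1 h and -0.02 at 6 h, and none passed the test at either time.

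Averaged over both times, 32 of the 39 genes were higher in stigmasterol mice, against 50.2% of all genes, with a median log2 fold change of 0.15. The edgeR test called 0 of the 39 and 0% of all genes; 4 were higher and 1 was lower at an unadjusted p below 0.05 (background 4.69% and 4.47%), and DESeq2 and limma-voom called 0. Dynlrb2 was at 0.52 ± 0.21, Foxj1 at 0.53 ± 0.22, Tekt4 at 0.36 ± 0.15, Pifo at 0.57 ± 0.26, Mlf1 at 0.50 ± 0.24 and Rfx3 at -0.24 ± 0.10, with edgeR adjusted p between 0.486 and 0.548. With the plexus covariate the median was -0.00. With 1 library left out it was 0.07 and 0.09 without stigmasterol mouse 22 or vehicle mouse 12, and 0.30 and 0.25 without vehicle mouse 21 or 5. The higher count at an unadjusted p below 0.05 ran from 0 (without stigmasterol mouse 11 or 22 or vehicle mouse 4 or 12) to 15 (without vehicle mouse 21). Without vehicle mouse 21, 976 of all 18702 genes were higher at that cutoff.

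The difference of the stigmasterol effects, 6 h minus 1 h, was below 0 for 35 of the 39 genes and above 0 for 4, where 49% of all genes were above 0, and its median was -0.41 against -0.00 for all genes. The edgeR test of this difference called 0 of the 39 and 0% of all genes, with adjusted p of 1.00, and 1 gene, Cfap43, was lower at an unadjusted p below 0.05 (background 1.67% lower and 0.642% higher). DESeq2 and limma-voom called 0. Cfap43 was at -0.87 ± 0.38, Spag16 at -1.20 ± 0.58, Pifo at -1.06 ± 0.52, Dynlrb2 at -0.80 ± 0.42, Cfap126 at -0.85 ± 0.45 and Rsph1 at -0.75 ± 0.42. The effects at 1 h and 6 h were therefore not shown to differ for any of these genes. The median was 0.13 with the plexus covariate and -0.12, -0.23 and -0.24 without vehicle mouse 21, stigmasterol mouse 23 or stigmasterol mouse 11. Without stigmasterol mouse 22, 14 of 39 genes were lower at an unadjusted p below 0.05, beside 868 lower and 402 higher of all 18722 genes. Without vehicle mouse 5, 11 of 40 were lower, beside 479 lower and 88 higher of all 18732 genes.

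In vehicle mice, 38 of the 39 genes were higher at 6 h than at 1 h, against 52% of all genes, with a median log2 fold change of 0.35. The edgeR test called 0 of the 39, against 124 of all genes (0.675%), and 8 were higher at an unadjusted p below 0.05 (background 10.6%). DESeq2 called 3 of the 39 (Dnah2, Cfap43 and Cfap44), or 7.69%, beside 6.28% of all genes. A fit of the compared groups alone called 4 (Dnah2, Ccdc39, Ccdc114 and Cfap44), or 10.3%, beside 9.94% of all genes, so the shares were near those of all genes, and limma-voom called 0. The groups of 8 genes did not overlap, all higher at 6 h (background 15.9%). Without vehicle mouse 21 the median was 0.17 with 31 of 40 higher. The count at an unadjusted p below 0.05 was 2, 3 and 5 without vehicle mouse 21, 4 or 9, and 16, 13, 12 and 12 without vehicle mouse 12 or 5 or stigmasterol mouse 22 or 23. Over all genes, the higher count in those fits ran from 1453 of 18688 (without vehicle mouse 9) to 2200 of 18708 (without stigmasterol mouse 23). This comparison uses the same vehicle mice as those above.

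Cfap44 was at 23.5, 21.7 and 30.5 CPM in vehicle mice 12, 14 and 21 at 6 h, and at 13.95, 19.4 and 13.6 CPM in vehicle mice 4, 5 and 9 at 1 h. Dnah2, an inner-arm heavy chain, was at 18.7, 19.7 and 20.3 CPM at 6 h and at 12.02, 14.6 and 12.9 CPM at 1 h. In both genes every mouse at 6 h was above every mouse at 1 h, and Dnah2 had the tighter groups. Their log2 fold changes were 0.69 ± 0.19 and 0.57 ± 0.16, with edgeR adjusted p of 0.0908 and 0.0938. Dnah2 passed when stigmasterol mouse 22 or 23 at 6 h was left out of the fit.

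Cfap43 and Cfap65, of the motile axoneme, had log2 fold changes of 0.87 ± 0.27 and 0.86 ± 0.30 between the times, and their groups overlapped. Dnah9 and Tekt4 were at 0.25 ± 0.09 and 0.57 ± 0.22 without overlap. The edgeR adjusted p of these 4 genes lay between 0.113 and 0.168. The plexus markers were also all higher in vehicle mice at 6 h, with a median of 1.20. With plexus content as a covariate the median of the cilia genes was 0.03, and without vehicle mice 4 and 9, with mouse 5 alone at 1 h, it was 0.18.

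In stigmasterol mice, 23 of the 39 genes were higher at 6 h than at 1 h, against 46.7% of all genes, with a median of 0.02. The median turned with the library left out: it was -0.19 with 13 of 39 higher without stigmasterol mouse 22, -0.08 without mouse 1, 0.16 with 30 of 40 higher without mouse 23, 0.12 without mouse 11 and 0.09 without mouse 13. The edgeR test called 0 of the 39 and 1 of all genes (0.00544%), DESeq2 and limma-voom called 0 of the 39, and only Dnah2 had an unadjusted p below 0.05 (background 5.41% higher and 4.59% lower). Dnah2 was at 15.8, 23.1 and 13.6 CPM in mice 13, 22 and 23 at 6 h, and at 12.2, 12.1 and 14.9 CPM in mice 1, 8 and 11 at 1 h, so the groups overlapped; its log2 fold change was 0.42 ± 0.16 with an edgeR adjusted p of 0.431. The next genes were Dnah12 at 0.44 ± 0.21, Ccno at 0.42 ± 0.21, Dnah9 at 0.17 ± 0.09, Dnah1 at 0.27 ± 0.14 and Pifo at -0.64 ± 0.35, with edgeR adjusted p between 0.512 and 0.560. Dnah9 was the one gene whose groups did not overlap (background 6.9% higher and 6.62% lower). With the plexus covariate the median was 0.18 and 32 of 39 were higher. In that fit 6 of the 39, all higher, had an unadjusted edgeR p below 0.05. Over all genes it was 930 higher and 818 lower of 18382.

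The other motile cilia genes include further dynein chains, assembly factors and axonemal proteins. At 1 h, 76 of 92 were higher in stigmasterol mice, against 49.6% of all genes, with a median log2 fold change of 0.26. None passed the edgeR test, which called 0% of all genes. At an unadjusted p below 0.05, 11 were higher and 1 was lower (background 4.97% and 2.55% of all genes). The smallest p values belonged to Odf3b (0.85 ± 0.28), Iqca (0.71 ± 0.23) and Ropn1l (0.67 ± 0.25), each with an edgeR adjusted p of 0.649. At 6 h, 44 were higher and 48 lower, with a median of -0.01.

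Between 6 h and 1 h in vehicle mice, 75 of the 92 were higher, against 52% of all genes, with a median of 0.32. Of the 92, 2 rose past the edgeR test, which called 124 of all 18382 genes (0.675%). Cfap100, whose Chlamydomonas counterpart acts on the inner arms, averaged 21.03 ± 1.97 CPM at 6 h and 14.1 ± 0.887 CPM at 1 h, a log2 fold change of 0.58 ± 0.11 with an edgeR adjusted p of 0.0394. Cfap46, whose Chlamydomonas counterpart is in the central apparatus, averaged 8.45 ± 1.28 CPM at 6 h and 5.18 ± 0.481 CPM at 1 h, a log2 fold change of 0.70 ± 0.14 with an edgeR adjusted p of 0.0432. Neither call held when any of the 6 vehicle mice (4, 5 and 9 at 1 h, 12, 14 and 21 at 6 h) was left out, with adjusted p of 0.0872 to 0.148 for Cfap100 and 0.0913 to 0.158 for Cfap46. With the plexus covariate it was 0.165 for each. Between 6 h and 1 h in stigmasterol mice, 52 of the 92 were higher, against 46.7% of all genes, with a median of 0.03. None of the 92 passed the edgeR test there. Cfap100 had the smallest p of the list, at 20.1 ± 2.82 CPM at 6 h and 13.96 ± 0.45 CPM at 1 h. Its log2 fold change was 0.53 ± 0.11 with an edgeR adjusted p of 0.170. For Cfap46 the difference of the stigmasterol effects, 6 h minus 1 h, was -0.51 ± 0.19.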

How the data were processed

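The values used here are the authors' deposited counts of reads per gene; a deposited normalized table was not used here. The submitters' processing notes, credited here for the upstream steps, list build GRCm38 and, in no stated order, STAR 2.4.2a, HTSeq 0.6.1p1, cutadapt, bcl2fastq 2.17.1.14, DESeq and DESeq2 1.10.1. Per the labels' protocols, libraries came from total RNA with a TruSeq mRNA kit; strandedness is not given in the sources used here. Every gene in the table reached at least 6 counts in some library. Positions and exon lengths came from GENCODE M21, which annotates 21501 of the 21532 genes.

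Counts were fitted with edgeR 4.0.16 in R 4.3.3 (TMM scaling, filterByExpr, quasi-likelihood test, 1 coefficient per group, all 12 libraries), and p was adjusted by Benjamini-Hochberg over 18382 genes at a threshold of 0.05. The common biological coefficient of variation was 0.123. CPM uses TMM-scaled totals, log2 CPM a prior count of 2, and SE is the absolute log2 fold change over the square root of the F statistic. The procedure was run on simulated counts, drawn independently for each gene, with known changes at 1 h. How often it recovered small changes is not reported here, so that run does not bear on the genes not called. Alternatives were DESeq2 size factors, no filter, a stricter filter, the DESeq2 1.42.0 Wald test, limma-voom (limma 3.58.1), the compared groups alone, plexus marker content as a covariate, vehicle mice 4 and 9 left out together, an adjusted p of 0.1, and each library left out in turn, the last added for counts over all genes after seeing the data.

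The members and the comparison lists were chosen with earlier results of these data known, so no test over a list is given. Genes named with fold changes are the 12 with the smallest p at 1 h, the 6 with the smallest p in each other comparison, the tested regulators at 1 h and 6 h, and the 3 other motile cilia genes with the smallest p at 1 h or called. Genes outside that rule are named where a count is small.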

Additional observations from a re-analysis of the deposited data

How the results depend on the processing

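No paired analysis was possible because the replicate numbers in the titles are not shared between groups. No member passed in the comparisons of stigmasterol with vehicle, in their difference or between times in stigmasterol mice, under any alternative run. Between times in vehicle mice the count of members called, 0 as reported, was 3 by DESeq2, 4 with the compared groups alone, 2 at an adjusted p of 0.1 and 0 to 1 with each library left out. The member median at 1 h was -0.0381 with the plexus covariate and 0.0599 without vehicle mice 4 and 9, which leaves 1 vehicle mouse at 1 h and removes the lowest cilia levels. For the difference of effects it was 0.13 with the covariate, -0.12 without those mice and -0.59 to -0.12 with each library left out, and between times in vehicle mice it was 0.0347 with the covariate. The cause of these shifts was not tested. Over all genes, DESeq2 called 21 at 1 h, 4 at 6 h and 103 averaged, where edgeR called 0, and 3 (no filter) and 7 (adjusted p of 0.1) were called averaged. Between times in vehicle mice, where 124 genes were called as reported, the stricter filter gave 276, DESeq2 1154, the compared groups alone 1771, an adjusted p of 0.1 963, and the covariate and the fit without mice 4 and 9 gave 0 each. With each library left out, repeats added after seeing the data, that count ran from 0 to 582: 0 without vehicle mouse 5, 1 to 4 without vehicle mouse 4, 9, 12, 14 or 21, 32 to 66 without stigmasterol mouse 1, 11 or 13, and 293, 582 and 546 without stigmasterol mouse 8, 22 or 23; it ran from 0 to 26 averaged (26 without stigmasterol mouse 23) and from 0 to 5 between times in stigmasterol mice. Between times in stigmasterol mice, where 1 was called, DESeq2 gave 97, an adjusted p of 0.1 gave 16, and the stricter filter and the compared groups alone gave 0. Of 944 repeats of the 48 named fold changes, 926 kept direction and side of the threshold, 7 newly passed it and 11 changed sign. Changed signs at 1 h with the covariate were Cfap43 at -0.0011, Cfap52 at -0.0194, Ccno at -0.0865 and Rfx2 at -0.27; without mice 4 and 9, Ccno was at -0.041 and Rfx2 at -0.10. With 1 library left out, Ccno at 1 h ran from -0.0762 (without vehicle mouse 4) to 0.186 and was at -0.0385 without stigmasterol mouse 11, and at 6 h Foxj1 ran from -0.22 to 0.53 and Rfx2 from -0.0955 to 0.33, each lowest without stigmasterol mouse 22. For the difference of effects Rsph1 was at 0.0695 with the covariate. The SE of the 12 genes named at 1 h ran from 0.14 for Rfx3 to 0.42 for Spag16.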

Other observations

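Cilia genes of other kinds and the upstream multiciliation genes were listed in the same fit. At 1 h, 10 of 25 intraflagellar transport genes and 10 of 16 neuronal primary cilium genes were higher in stigmasterol mice, with median log2 fold changes of -0.04 and 0.03. In each list 0 passed the edgeR test, with 0 and 1 at an unadjusted p below 0.05 (background 4.97% higher and 2.55% lower). At 6 h the medians were -0.01 and -0.01. Of 13 genes of the multiciliation program, such as Gmnc, Myb and Trp73, 7 were higher at 1 h and 3 at 6 h, with medians of 0.01 and -0.06. In vehicle mice Rfx1, an X-box binding factor on that list, was higher at 6 h than at 1 h, with a log2 fold change of 0.45 ± 0.08 and an edgeR adjusted p of 0.0394; leaving out any of the 6 vehicle mice gave 0.0812 to 0.148.

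Among the cell type lists at 1 h, 4 of 9 astrocyte markers, 7 of 9 subventricular neuroblast markers and 1 of 9 hippocampal neuron markers were higher in stigmasterol mice, with medians of -0.01, 0.05 and -0.17. At 6 h, 8 of 8 ependymal genes outside the axoneme were higher, with a median of 0.07, and 7 of 8 were higher at 1 h, with a median of 0.11. None passed the edgeR test at either time. At an unadjusted p below 0.05, 2 were higher at 1 h and 1 at 6 h (background 4.97% and 1.64% of all genes). In vehicle mice Fgfr3, a growth factor receptor of astrocytes, was higher at 6 h than at 1 h, with a log2 fold change of 0.55 ± 0.09 and an edgeR adjusted p of 0.0269; with 1 vehicle mouse left out it was 0.0324 to 0.139.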
